A study of Mus musculus with 4 samples.

Results

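The lysosomal enzymes and proton pump described here are 34 mouse genes out of 50600 in the count tables. They were picked as a list of gene symbols, with no threshold on measured values but with earlier results of these data known, and each symbol matched exactly 1 row. They comprise 7 cathepsins, 11 other hydrolases and their activators, 5 membrane proteins, 5 genes of the V0 sector of the proton pump and 6 of its V1 sector. RNA-seq of mouse primary cells gave 4 libraries that form 1 group, biological replicates 1 to 4 of regulatory T cells from strain C57BL/6NJ. The labels give 1 donor record for all of them, no sex and no age, name no treatment, and cite a protocol for differentiating CD4 T cells. The column name in each file carries the text "activated" and a mark of 0 h. With 1 group there was no contrast between conditions, so levels, their order and their spread between libraries were measured, and that spread may be technical.

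Lysosomes are acidic organelles that break down proteins, lipids, glycans and nucleic acids. Their enzymes are made in the secretory pathway, mostly sorted by mannose 6-phosphate receptors, and work at low pH. That pH is set by the vacuolar ATPase, in which the cytosolic V1 sector hydrolyses ATP and turns the V0 sector in the membrane, which carries protons into the lumen. In T cells, lysosomes also take part in nutrient signalling through mTOR and in the turnover of surface receptors.

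Depth ran from 23000465 counts in replicate 3 to 62090744 in replicate 2, a 2.70-fold range, and the members took 78690 to 215753 of these counts. All 9 regulatory T cell markers and all 7 T cell markers reached 1 TPM, a level per gene length, in every library, with Foxp3, the factor that defines regulatory T cells, at 8.28 ± 0.867 TPM (SD, n = 4). The regulatory T cell markers had a median of 9.22 ± 1.18 TPM, below the 33.2 of all detected protein-coding genes. Ikzf2 was the lowest of them at 1.34 ± 0.194. Izumo1r and Tnfrsf18 were the highest, at 167 ± 8.51 and 107 ± 3.80 TPM, and every other marker of that list was below 33.2. Il2ra, the receptor chain for interleukin 2 that marks these cells, had 6.22, 3.63, 9.13 and 3.11 TPM and was called variable between libraries (edgeR, adjusted p = 1.19e-07). Since lysosomal genes are abundant in phagocytes, markers of other cells were read beside them. Of 11 macrophage and monocyte markers, 3 reached 1 TPM in every library (Cd68, Itgam and Lyz2). The list summed to between 14.8 and 17.9 TPM, most of it Cd68 at 11.7 ± 1.05 TPM. Lyz2 and Itgam had means of 1.78 and 1.60 TPM, and Csf1r and Adgre1 0.278 and 0.151 TPM. For Itgam, 68.7% of the exon bases overlap Gm49368 on the same strand, where fragments were not counted. Its level and the list's sum may therefore be too low. None of 6 dendritic cell markers and 1 of 4 neutrophil markers reached 1 TPM in every library, with sums of 0.623 to 1.17 and 1.26 to 2.52 TPM. The 7 B cell markers, 4 of them detected, summed to 101.5, 61.9, 62.0 and 22.2 TPM in replicates 1 to 4, highest in the first and lowest in the last. Of the CD8 T cell markers, Cd8a averaged 0.794 and Cd8b1 40.0 TPM. In bulk RNA, fewer cells of a type and less RNA per cell cannot be told apart.

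Nearly the whole set was expressed. At least 1 TPM in every library was reached by 33 of 34 members, against 23.1% of all genes and 45.7% of protein-coding genes, and the exception was Cd63. TPM here is the count per exon base of the gene, scaled to the same total in each library, so it compares genes per length. The median over the members was 68.2 ± 2.71 TPM (SD, n = 4), beside 33.2 ± 0.685 TPM over the 9948 detected protein-coding genes. Of the 33 detected members, 26 lay above that second median. Together the 34 genes took 0.385% ± 0.00588 of all TPM. Cathepsins had a median of 114 ± 3.08 TPM, the V0 genes 109 ± 2.57, the hydrolases and activators 64.8 ± 3.22, the V1 genes 58.4 ± 2.43 and the membrane proteins 50.9 ± 2.09.

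In the order by mean TPM there are 33 pairs of neighbours, of which 19 had overlapping ranges over the 4 libraries and 14 did not. Psap and Lamp1, for instance, stood clear of the gene below them, while Ctsd and Ctss, at 372 and 368 TPM, did not differ beyond their spread. Of the exon bases of Ctsd, 34.4% overlap another gene, where fragments were not counted, so its level may be too low. The order by mean TPM rests on the gene length in the files. Lipa and Atp6ap1, at 174 and 173 TPM, overlapped with that length. With the length of the longest transcript they had 126 ± 5.79 and 173 ± 9.94 TPM. Lipa has 2969 bases either way, so its fall came from the rescaled total, while Atp6ap1 went from 3026 to 2189 bases.

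**Figure D1:**
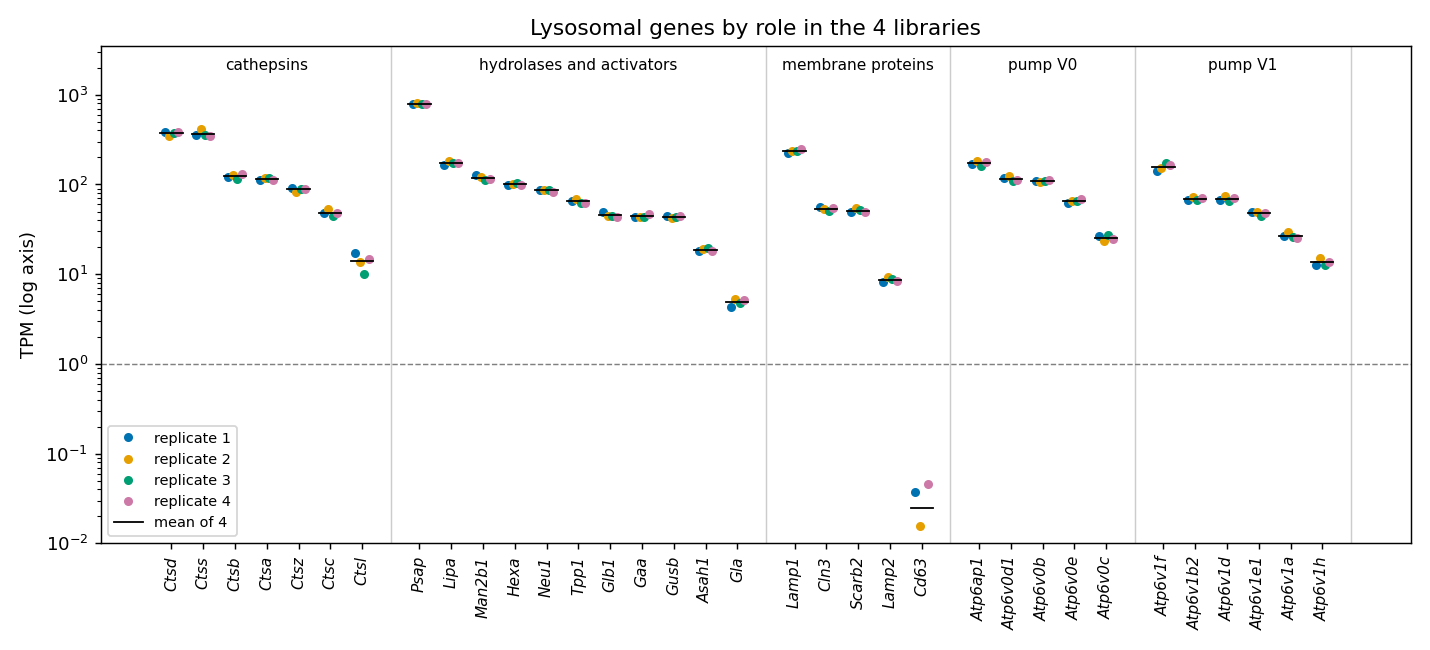
TPM (log axis) of the 34 members in each of the 4 libraries, grouped by role and ordered by mean, with the mean as a black bar and 1 TPM as the dashed line. All members but Cd63 lie above the line, and Cd63 in replicate 3, at 0 TPM, has no point.

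The promoters were read because several lysosomal genes are known targets of the TFEB family, which binds the sequence CACGTG, flanked in lysosomal genes by T and A (TCACGTGA, which contains it). Both words read the same on the other strand. RefSeq promoters (build GRCm38.p6, 250 bases before to 50 after each start) matched 30 of the 34 members by symbol. Ctsb, Asah1, Atp6v1b2 and Atp6v1h had no entry. CACGTG occurred in the windows of 12 of the 30 members (40.0%), 12.3% of the 8302 detected genes with an entry and 8.09% of all 27025 genes with one. TCACGTGA occurred in 7 of 30 (23.3%), 2.46% and 1.12%. Within the last 100 bases before the start CACGTG occurred in 5 of 30 members (16.7%), 5.94% of the detected genes and 3.70% of all genes, and TCACGTGA in 2 of 30 (6.67%), 1.46% and 0.622%. A match is a string in the window and not a measured binding site. The 12 members with CACGTG had a median of 59.9 TPM and the 18 without it 77.9 TPM, and the most abundant member, Psap, had none.

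These stretches are shown because they hold matches of 7 members drawn from all 5 roles. Further matches of Ctsd, Cln3 and Ctsa in the same windows are not shown. All lie before the RefSeq start, are written 5′ to 3′ on the strand of the gene, and carry the matches in capitals. The Ctsd, Cln3 and Ctsa stretches lie inside exons of the same gene in the deposited annotation, and 3 bases of the Atp6v0b stretch do. The others are outside exons of their own gene, and exons of other genes were not checked.
Ctsd, chr7:142387908-142387937, minus strand: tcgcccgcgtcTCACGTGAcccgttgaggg
Ctsa, chr2:164833749-164833772, plus strand: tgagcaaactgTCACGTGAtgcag
Gla, chrX:134601182-134601244, minus strand: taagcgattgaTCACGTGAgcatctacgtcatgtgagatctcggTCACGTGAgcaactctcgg
Cln3, chr7:126583340-126583369, minus strand: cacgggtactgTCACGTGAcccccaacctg
Lamp1, chr8:13159089-13159160, plus strand: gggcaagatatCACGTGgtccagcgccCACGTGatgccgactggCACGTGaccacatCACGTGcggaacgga
Atp6v0b, chr4:117887331-117887376, minus strand: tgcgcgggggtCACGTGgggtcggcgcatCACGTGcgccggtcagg
Atp6v1a, chr16:44139373-44139402, minus strand: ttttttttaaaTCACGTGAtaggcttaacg
Lamp1 held 4 copies of CACGTG. Gla and Ctsa each held 2 copies of TCACGTGA in the whole window, at mean levels of 4.90 and 115 TPM.

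Cathepsins held 29.4% of the members' TPM. Ctsd (chr7:142375911-142388038, mm10), the main aspartic protease of the lysosome, stood at 384, 346, 372 and 385 TPM in replicates 1 to 4. Ctss (chr3:95526786-95556403), a cysteine protease best known for trimming the invariant chain in antigen-presenting cells, stood at 356, 411, 360 and 346 TPM. Replicate 2 was the lowest library for Ctsd and the highest for Ctss, and the means, 372 ± 18.0 and 368 ± 29.0 TPM, did not differ beyond their spread. Of the exon bases of Ctsd, 34.4% overlap the gene Gm49369 on the same strand, where fragments were not counted. Its level is therefore uncertain and may be too low beside Ctss, whose exons overlap no other gene on that strand. Ctsb, a cysteine protease with both endo- and exopeptidase activity, had 124 ± 7.0 TPM. Ctsa, the serine carboxypeptidase that protects the sialidase Neu1 and the galactosidase Glb1 in a complex, had 115 ± 3.59 TPM. Ctsz, a carboxypeptidase, and Ctsc, a dipeptidyl peptidase that activates granule serine proteases, had 88.0 ± 3.85 and 48.6 ± 3.54 TPM.

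Ctsl, a cysteine endopeptidase, was the cathepsin with the lowest level and the widest spread. It had 17.0, 13.8, 10.2 and 14.6 TPM from 244, 475, 134 and 516 counts, so replicate 1 was high and replicate 3 low, a 1.67-fold range. Its coefficient of variation (CV) was 20.4%, against at most 8.89% in every other detected member. Replicate 1 was also the library with the highest B cell marker sum, but the lowest of those sums was in replicate 4 and the lowest Ctsl in replicate 3. The part of B cell RNA in this was not tested.

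Of 8 other cathepsins, 6 were detected. Ctsw, known from cytotoxic lymphocytes, had 213 ± 19.2 TPM, above all cathepsins in the set but Ctsd and Ctss. Ctse had 38.6 ± 3.32, Lgmn, the asparaginyl protease that processes other cathepsins, 35.8 ± 2.42, and Ctso 33.0 ± 4.35 TPM. Ctsk and Ctsf were near 2 TPM, with means of 2.17 and 1.88. Ctsh averaged 0.449 TPM, and Ctsg, a granule protease of neutrophils, had no count in any library. Among 6 inhibitors of cathepsins, 4 were detected, led by the secreted inhibitor Cst3 at 82.6 ± 4.39 and the cytosolic inhibitor Cstb at 57.7 ± 3.52 TPM.

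The hydrolases and activators took 38.8% of the members' TPM, most of it in Psap. Psap (chr10:60277627-60302597), the precursor of the saposins that present lipids to their hydrolases, had 787, 804, 786 and 784 TPM. These 4 libraries differed by 1.02-fold in TPM, with replicate 2 the highest, and the CV of 1.14% was the smallest among the members. With edgeR's TMM scaling, replicate 4 was the highest. Lipa, the acid lipase for cholesteryl esters, had 174 ± 8.03 TPM, and Man2b1, the acid alpha-mannosidase, 118 ± 6.75. Neu1, the sialidase, had 87.4, 87.8, 87.7 and 82.8 TPM, with replicate 4 low. Its partner Glb1, the beta-galactosidase, had 49.6, 44.6, 44.6 and 43.3 TPM, and Ctsa, which holds the complex together, 111, 118, 118 and 113. In each library the order was Ctsa, Neu1, Glb1.

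Hexa, the alpha subunit of beta-hexosaminidase, had 98.4, 100.1, 104.6 and 98.4 TPM, with replicate 3 the highest. Tpp1, a tripeptidyl peptidase, had 64.8 ± 3.22, Gaa, the glucosidase for glycogen, 44.4 ± 1.38, and Gusb, the beta-glucuronidase, 43.7 ± 1.36 TPM. Asah1, acid ceramidase, had 18.8 ± 0.749 TPM. Gla, the alpha-galactosidase that cleaves globotriaosylceramide, had 4.34, 5.30, 4.77 and 5.20 TPM, the lowest enzyme of the set with the length in the files. With the longest transcript's length Ctsl was lower, at 3.21 against 3.64 TPM. That Ctsl transcript, of 6168 bases in GENCODE M21, exceeds the 1971 exon bases on which its fragments were counted.

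All 22 other lysosomal hydrolases examined were detected. Acp5, the tartrate-resistant acid phosphatase, led them at 614 ± 50.6 TPM, above every member but Psap. With the longest transcript's length it had 646, 604, 559 and 677 TPM, a range that holds Psap's mean of 589. The lowest were Galc, galactosylceramidase, at 6.16 ± 0.564 and Dnase2a, the acid DNase, at 6.39 ± 0.640 TPM. For delivery of these enzymes, 8 of 9 sorting genes were detected, with the mannose 6-phosphate receptors M6pr and Igf2r at 144 ± 7.14 and 88.9 ± 1.44 TPM. Sort1, the receptor sortilin, averaged 0.117 TPM.

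The membrane proteins ran from the 236 TPM of Lamp1 to the undetected Cd63. Lamp1 (chr8:13159161-13175338), a heavily glycosylated protein that lines the lysosome's inner face, had 222, 239, 238 and 246 TPM, and its relative Lamp2, which also serves chaperone-mediated autophagy, had 8.27, 9.33, 8.88 and 8.35. Replicate 1 was the lowest for each. Cln3, a multispanning protein lost in juvenile Batten disease, had 54.0 ± 2.17, and Scarb2, an integral membrane protein of the lysosome, 51.2 ± 2.46 TPM. Of 15 other membrane or cholesterol-export genes, 13 were detected. Laptm5, found in blood cells, had 1433 ± 40.7 TPM and Npc2, the cholesterol transfer protein of the lumen, 533 ± 18.4.

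Cd63 (chr10:128900989-128912822), a tetraspanin of late endosomes used widely as a marker of lysosomes and exosomes, was the only undetected member. Its counts were 1, 1, 0 and 3, or 0.0374, 0.0155, 0 and 0.0455 TPM. A count of 0 allows at most 0.122 TPM at the shallowest depth, from 3 counts, with the length in the files and for counting error only. Fragments with several alignments were left out of the deposited counts, and 35.8% of the 50-base words of the principal transcript of Cd63 also occur in the pseudogene Cd63-ps, or 19.8% of 100-base words. Cd63-ps itself had counts of 0, 0, 0 and 2, and 64.2% of the 50-base words of Cd63 occur in no other gene.

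The proton pump took 22.7% of the members' TPM. In the V0 sector, Atp6ap1, an accessory protein of assembly, had 173 ± 9.97 TPM. Atp6v0d1, which links the rotor to the membrane ring, had 119, 124, 109 and 112 TPM and Atp6v0b, a proteolipid of the ring, 110, 106, 108 and 112. Atp6v0e, a small membrane subunit, had 65.8 ± 3.08 TPM. Atp6v0c, the main proteolipid of the ring, was the lowest V0 member at 26.8, 23.7, 27.3 and 24.4 TPM, with no library standing apart. For Atp6v0c, 27.4% of the exon bases overlap another gene on the same strand and 32.5% of its 50-base words occur in the pseudogene Atp6v0c-ps2. Fragments over another gene or with several alignments were not counted, so its level is uncertain too and may be too low. Of all 34 members, 18 had no 50-base word of the principal transcript in another gene, 11 had over 5% of them there and 0 had over 50%. These words were sought on either strand and in overlapping genes too, such as Gm49369 for Ctsd. Their share is therefore no measure of uncounted fragments.

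In the V1 sector, Atp6v1f, a subunit of the central stalk, led with 143, 154, 172 and 163 TPM, lowest in replicate 1 and highest in replicate 3. The nucleotide-binding subunits Atp6v1b2 and Atp6v1a, of which the second is catalytic, had 69.5 ± 2.91 and 26.8 ± 2.00 TPM. Atp6v1d, of the central stalk, had 69.4 ± 4.02, Atp6v1e1, of the peripheral stalk, 47.9 ± 2.19, and Atp6v1h, a regulator of the sector, 13.5 ± 1.19 TPM. All pump members were detected, from 13.5 to 173 TPM with the length in the files and from 27.7 TPM (Atp6v1a) to 173 (Atp6ap1) with that of the longest transcript.

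Where a member has a second isoform gene, that gene was at or near 0. Atp6v1b1, the B isoform of kidney and inner ear, and Atp6v1e2, the E isoform of testis, had no count in any library. Against a floor of 3 counts over the group, Atp6v1b2 and Atp6v1e1 were at least 5089-fold and at least 799-fold higher. Atp6v0d2, the d isoform known from osteoclasts and macrophages, had 10 counts in all and Atp6v0e2 had 4. Atp6v0d1 was 1568-fold higher than its isoform (95% counting interval 852 to 3269) and Atp6v0e 1959-fold higher (765 to 7188), both per length. As log2 ratios of TPM plus 0.1, which at so few counts depend on the 0.1 added, d gave 9.67 ± 0.57 and e 8.88 ± 0.38, positive in 4 of 4 libraries each.

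Of all 14 pump genes outside the set, 7 were detected. For the a subunit, which lies beside the ring and directs the pump to its membrane, Atp6v0a2 had 106 ± 3.77 and Tcirg1, the a3 isoform of osteoclasts and T cells, 68.4 ± 5.73 TPM. Atp6v0a1 had 1.98 ± 0.283 TPM and Atp6v0a4 no count. Atp6v1c1 and Atp6v1g1 were at 74.0 ± 6.38 and 91.3 ± 2.14 TPM, whereas Atp6v1c2 had no count and Atp6v1g2 had 4.77 ± 0.641. The second accessory gene, Atp6ap2, had 67.8 ± 6.57 TPM.

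**Figure D2:**
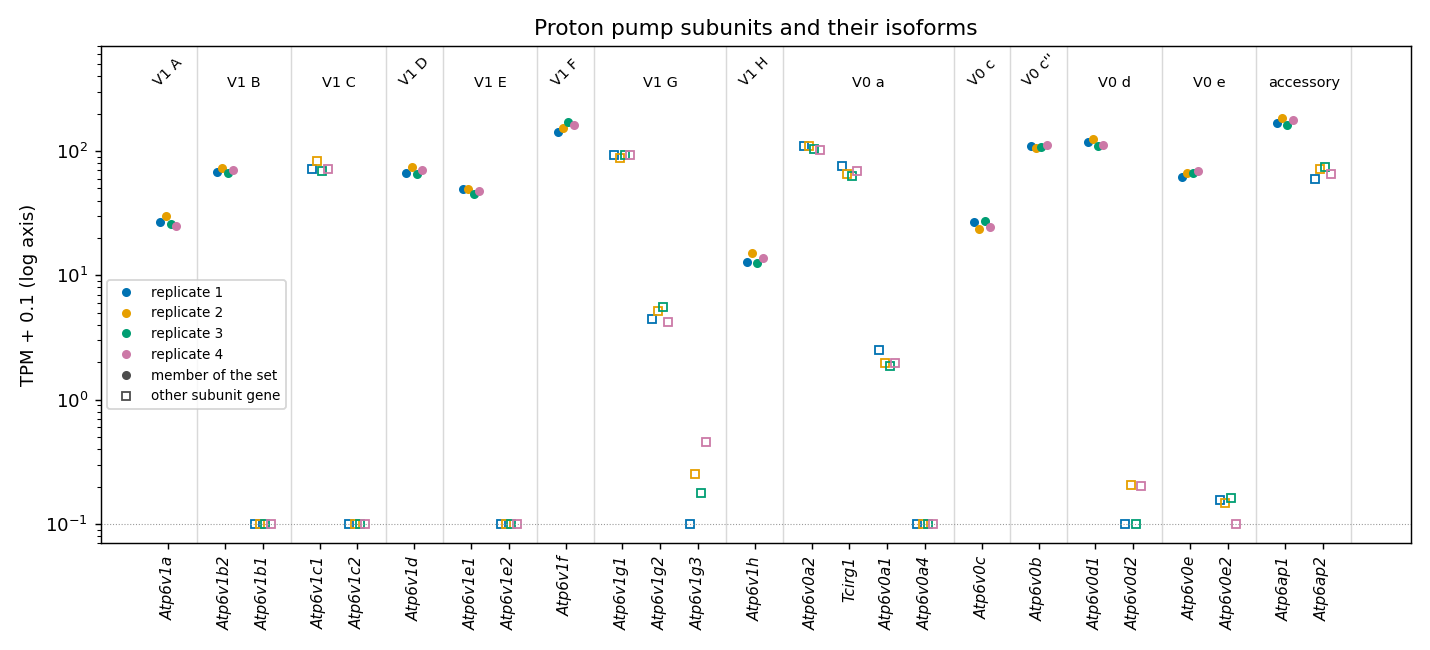
TPM plus 0.1 (log axis) of pump subunits in each of the 4 libraries, with set members as filled circles, other subunit genes as open squares, and the dotted line at 0 counts. One gene leads each of the B, C, E, G, d and e subunits, while Atp6v0a2 and Tcirg1 both stand at high level for the a subunit.

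The regulators of the pathway were also read. Tfeb and Tfe3, which activate lysosomal genes, had 17.3 ± 0.565 and 14.6 ± 0.927 TPM, and Mitf of the same family 1.51 ± 0.168. Tfec, the last of the family, had no count in any library. Zkscan3, described as a repressor of this programme, had 37.6 ± 2.65 TPM. Over the 7 pathway lists, 64 of 79 genes outside the set were detected.

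None of the 33 members that passed the filter was called variable between libraries. The test was edgeR's intercept-only fit, with the residual deviance of each gene at the trended dispersion set against chi-square on 3 degrees of freedom. It called 142 of 12554 genes at an adjusted p of 0.05 (1.13%) and 0 of the 33 members, a share too close to that background to be read as a property of the members. At an unadjusted p of 0.05 it called 657 genes (5.23%) and 0 of the 33 members, too few members to read a difference from that share. With DESeq2's size factors or dispersion trend the members' count at the adjusted p was 0 as well. Ctsl had the lowest p of the members at 0.0696 (edgeR, adjusted p 1.00), with libraries at 0.31, -0.02, -0.41 and 0.12 log2 from its mean. The median range over libraries was 0.15 log2 for the members and 0.24 for all tested genes. The median CV was 4.83% over the detected members, against 6.33% over the 8727 detected protein-coding genes within their TPM range. That range ran from 4.90 to 790 TPM, and the tested genes include many of low count, whose ranges are wide. Neither comparison was closely matched for abundance, so no particular steadiness of the members can be read from them. The lysosomal members as a group sat at -0.03, 0.00, -0.02 and 0.03 log2 in replicates 1 to 4, in median.

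**Figure D3:**
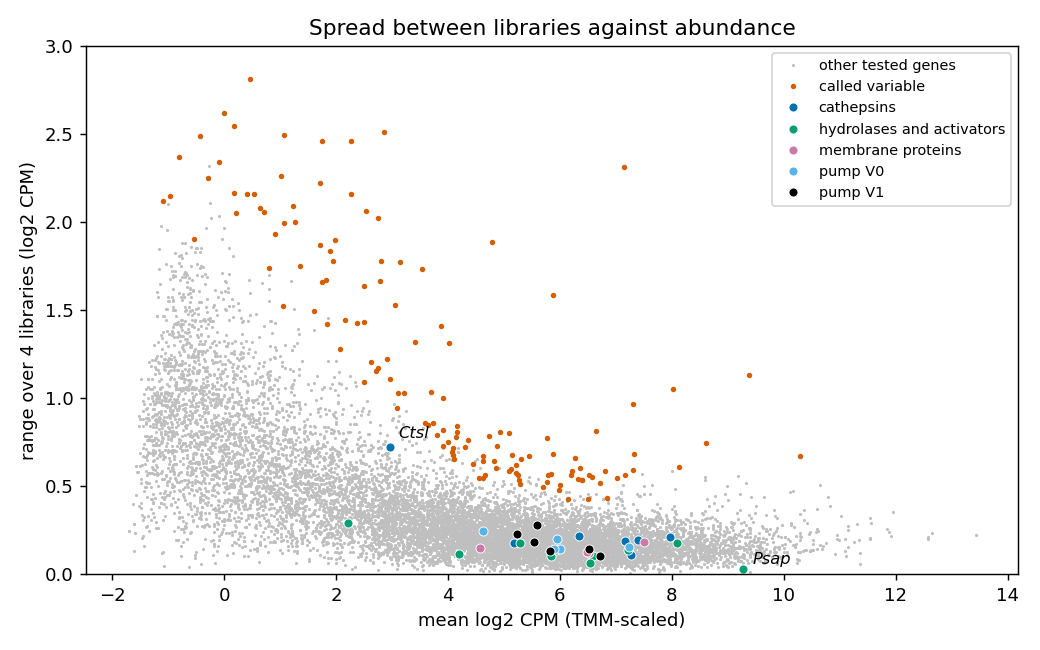
Range over the 4 libraries in log2 CPM against mean log2 CPM for the 12554 tested genes, with genes called variable in orange and members coloured by role; 4 genes lie above the axis. The members' ranges run from 0.03 for Psap to 0.72 for Ctsl.

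How long a gene is taken to be changed several levels. The length in the files counts every exon base of any transcript in the M13 GENCODE release, which is 9746 bases for Atp6v1h. Its longest basic transcript in the M21 release has 2049. With the length of the longest basic transcript instead, an alternative added after the data had been seen, Atp6v1h rose from 13.5 to 46.4 TPM. Atp6v1e1 rose from 47.9 to 108, Atp6v0c from 25.5 to 52.7, Lamp2 from 8.71 to 16.7 and Man2b1 from 118 to 179. Ctsl fell from 13.9 to 3.21. These 6 were the detected members whose TPM moved by over 1.5 times. Undetected Cd63 rose from 0.0246 to 0.0589 TPM. The new lengths also rescale the total, so Lipa, at 2969 bases either way, fell to 0.722 of its level. Atp6v0b, from 2051 to 1000 bases, rose by only 1.48 times. More members than these 6 therefore changed in their own length by over 1.5 times. For Ctsl the releases differ, with a transcript of 6168 bases against 1971 exon bases in the files. Its fragments were counted on M13 exons only. The 3.21 TPM divides that count by a longer M21 length and is no like-for-like level. Psap, Ctsd, Ctss and Lamp1 kept the 4 highest places.

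**Figure D4:**
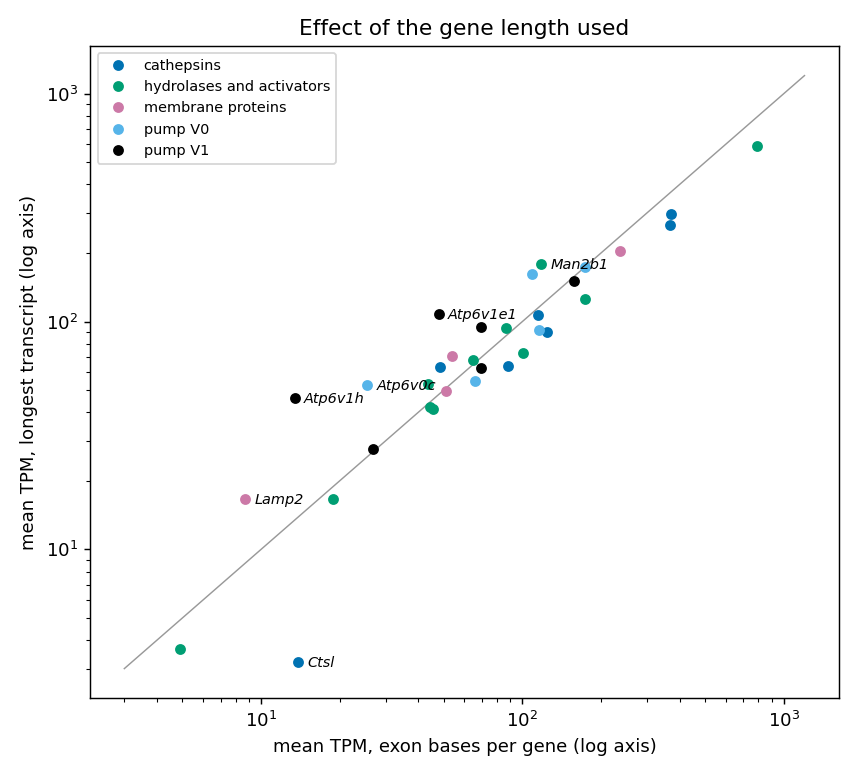
Mean TPM of the 33 detected members with the longest basic transcript (vertical, log axis) against the mean TPM with exon bases per gene (horizontal, log axis), coloured by role, with the line of equality. Named genes moved by over 1.5 times, Atp6v1h the most upward and Ctsl the most downward. The Ctsl transcript is longer than the exon bases on which its fragments were counted.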

How the data were processed

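Total RNA (per the labels; the cited library protocol is titled for poly(A) RNA) was sequenced in 4 libraries. Per the file headers, the authors ran featureCounts (version 1.4.6-p4, strand setting 2) on alignments named for STAR, counting exonic fragments per gene of the M13 GENCODE release on mm10, with no option for fragments with several alignments or several genes. The deposited unit is therefore raw counts, with exon bases per gene. Here TPM was computed from each count and the deposited length. Symbols came from GENCODE M21 for 50376 of 50600 genes, and so did the lengths of the longest basic transcripts. Detection meant 1 TPM in all libraries. Variation was tested with edgeR 4.0.16 (R 4.3.3, filterByExpr, TMM, Benjamini-Hochberg adjustment), with DESeq2 1.42.0 as an alternative. The step was tested on simulated data drawn at its own dispersion trend, which cannot test that trend. Other work used Python 3.11.15 with scipy 1.17.1, pandas 2.3.3 and numpy 2.4.6. Libraries were no duplicates (chi-square per degree of freedom 6.71 to 29.3). The members and lists were chosen with earlier results of these data known. All members and listed pathway genes could be named with values; a few listed genes count in their list but are not reported here. Cell markers were read as lists. P-values measure only the spread between these 4 samples. Intervals and floors cover counting error only.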

Additional observations from a re-analysis of the deposited data

Results flagged for a closer look

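In 5 of 150 genes and group values, 1 library lay far from the other 3, by a gap above Dixon's limit as a part of the group's range. Chance flags about 1 in 20. Psap was high in replicate 2 (0.836 of the range), Neu1 low in replicate 4 (0.921), Gaa high in replicate 4 (0.837), Atp6v1g1 low in replicate 2 (0.895) and Galc low in replicate 2 (0.937). These flags are in TPM. In TMM-scaled log2 CPM Psap's replicate 2 lay at -0.00667 from the mean and replicate 4 was highest, at 0.0165. The ranges themselves were narrow, as with Psap at 784 to 804 TPM and Galc at 5.31 to 6.48 TPM.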

How the results depend on the processing

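No paired analysis was possible because there is 1 group. Of 113 alternative values, 86 stayed within the spread or within 1.5 times the count, 27 moved and 0 reversed. The 0 members called variable stayed at 0 in each setting, while the count of all genes moved to 74 at an adjusted p of 0.01, 88 without a filter, 352 with a common dispersion and 60 to 85 with a replicate left out. Detected members ran from 32 (5 TPM) to 33, and were 33 with any replicate left out. The members' median TPM was 73.9 over protein-coding genes only, and 67.2 to 68.9 with a replicate left out. Their share of TPM was 0.417% over protein-coding genes, 0.354% with the longest transcript's length, and 0.382% to 0.386% with a replicate left out. With that length the medians were 89.5 TPM for cathepsins, 92.1 for V0 and 78.5 for V1, so that V0 came before cathepsins and V1 before the hydrolases. With a pseudocount of 1 TPM the log2 isoform ratios of d and e were 6.80 and 6.00, set by the pseudocount. Within 100 bases, matching members were 5 (CACGTG) and 2 (TCACGTGA), and shares of detected genes fell too, to 5.94% and 1.46%. Causes other than the construction of a setting were not tested. Depth limits the isoforms at 0 to 10 counts, and 4 libraries limit every SD.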
